A study of Mus musculus with 272 samples.

Results

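The messenger RNAs of 9 genes for RNA-binding proteins that govern translation in the mouse egg were followed through 8 stages, from the oocyte to the blastocyst. The genes were listed by name: Cpeb1, Dazl, Pabpc1, Pabpc1l, Pabpn1l, Ybx1, Ybx2, Zar1 and Zar1l. All 9 are among the 15771 genes of the deposited expression table that have values of their own. The samples are mouse oocytes at the germinal vesicle (GV) and metaphase II (MII) stages, zygotes, and embryos at the 2-cell, 4-cell, 8-cell, morula and blastocyst stages. For each stage there were 4 transcriptome libraries, each from a pool of 20 oocytes or embryos. There were also 3 sucrose gradients per stage, A to C, each loaded with about 100 oocytes or embryos lysed in buffer with cycloheximide, a drug that holds ribosomes on their messages. Each gradient was cut into 10 fractions of equal volume, and every fraction was made into a library, which gives 30 fraction libraries per stage. No group carried a mutation, a transgene or another treatment that the labels name, and the labels give no strain and no age. They also do not say that the pools or gradients came from separate animals, so every p-value below measures the spread between these pools or gradients alone.

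A growing oocyte stores messages that it translates later, when its own transcription has stopped. CPEB1 binds the cytoplasmic polyadenylation element (CPE) near the end of such messages, where it holds translation back in the GV oocyte and, after phosphorylation at meiotic resumption, recruits the machinery that lengthens the poly(A) tail. DAZL binds other sites in the same 3' untranslated regions and acts together with CPEB1. Poly(A)-binding proteins coat the tail: PABPC1 is the cytoplasmic form of somatic cells, PABPC1L (also called ePAB) is its germ-cell counterpart, and PABPN1L is a germ-cell relative of the nuclear form. YBX2 (MSY2) and YBX1 are Y-box proteins, abundant partners of stored messages. ZAR1 and its relative ZAR1L are oocyte zinc-finger proteins that bind maternal messages. The embryo's own genome is switched on mainly at the 2-cell stage in the mouse, while maternal messages are cleared.

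Each CPE shown here lies in the 3' untranslated region of a gene whose level or gradient position is described below. The stretches of 30 bases come from GENCODE M21 transcripts, a GRCm38 annotation, and run 5' to 3' with U written as T. Capitals mark the CPE, searched as TTTTAT or TTTTAAT on the transcript strand only, and the poly(A) signal AATAAA where it falls in the same stretch.
Ybx1: cttcatTTTTAATttgtAATAAAgtttaca
Ybx2: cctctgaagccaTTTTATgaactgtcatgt
Pabpc1: aacaaattaatgTTTTATagaccctgggaa
Cpeb1: ttgacttttctTTTTAATttaacgattact
Dazl: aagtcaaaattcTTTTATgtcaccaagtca
Orc6: tcaagcccAATAAAtgttatTTTTATatgc
Bub1b: cactgtgtaTTTTATAATAAAatagttttt
Cnot7: ttaaggtacaTTTTATatcAATAAAaatac
Btg4: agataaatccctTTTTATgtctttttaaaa
Orc6, Bub1b, Cnot7 and Btg4 are shown because they belong to a list of 14 messages, which is described after the members. These are known as targets of CPEB1 or DAZL or as activated during maturation, and are called targets here. Within the last 100 bases of the transcript, a CPE was found in 2 of the 9 members, Ybx1 and Ybx2, in 8 of the 14 targets, and in 17.8% of 19699 genes with a 3' untranslated region of at least that length. The annotated 3' untranslated region of Zar1l has only 14 bases. Over the whole region, Dazl held 6 CPEs, Cpeb1 held 4, Ybx1 held 2, and Pabpc1 and Ybx2 held 1 each. The Dazl stretch lies 385 to 356 bases before the annotated end and the Cpeb1 stretch 260 to 231 bases before it. Pabpc1l, Pabpn1l, Zar1 and Zar1l held none, which says only that these letters are not in the annotated region. The other member stretches lie 206 to 177 bases (Pabpc1), 94 to 65 bases (Ybx1) and 74 to 45 bases (Ybx2) before the end.

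Promoters are given for the 3 members that held a match to 1 of the 2 motifs described next, and for Ybx1, which was highest from the 4-cell stage on. They are the 250 bases before the annotated start in the RefSeq annotation of GRCm38.p6, where 8 of the 9 members have an entry. The letters TAATTG, the element bound by the oocyte regulator NOBOX, and the E-box CAGCTG, a form that FIGLA and other helix-loop-helix proteins can bind, were searched on both strands, and matches are in capitals. TAATTG reads CAATTA on the other strand, and the 2 motifs do not overlap.
Zar1 (chr5:72581085-72581334, minus strand): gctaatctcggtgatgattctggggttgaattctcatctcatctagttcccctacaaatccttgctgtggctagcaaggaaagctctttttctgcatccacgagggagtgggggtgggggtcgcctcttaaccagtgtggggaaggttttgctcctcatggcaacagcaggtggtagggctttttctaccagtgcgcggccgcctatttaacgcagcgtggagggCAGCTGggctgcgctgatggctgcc
Zar1l (chr5:150518160-150518409, minus strand): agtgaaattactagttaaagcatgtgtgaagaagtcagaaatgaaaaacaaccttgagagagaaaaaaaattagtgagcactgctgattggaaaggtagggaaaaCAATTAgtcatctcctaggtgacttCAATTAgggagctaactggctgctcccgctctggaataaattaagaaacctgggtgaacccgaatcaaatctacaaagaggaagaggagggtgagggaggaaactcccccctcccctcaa
Pabpn1l (chr8:122622736-122622985, minus strand): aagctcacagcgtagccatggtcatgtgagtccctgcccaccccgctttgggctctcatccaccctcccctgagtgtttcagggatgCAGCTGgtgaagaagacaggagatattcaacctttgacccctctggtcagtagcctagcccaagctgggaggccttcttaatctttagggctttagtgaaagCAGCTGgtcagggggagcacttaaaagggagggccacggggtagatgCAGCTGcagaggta
Ybx1 (chr4:119294514-119294763, minus strand): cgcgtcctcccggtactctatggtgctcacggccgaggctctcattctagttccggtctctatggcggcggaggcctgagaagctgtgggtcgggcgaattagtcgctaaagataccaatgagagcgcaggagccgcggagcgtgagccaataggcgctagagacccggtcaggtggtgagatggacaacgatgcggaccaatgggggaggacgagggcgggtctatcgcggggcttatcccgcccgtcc
The Zar1 promoter held 1 E-box, that of Pabpn1l held 3, and that of Zar1l held 2 NOBOX elements. Over 32851 promoters of the same length, 13% held the E-box and 7.17% held the NOBOX element. The other 5 members with an entry held neither: Ybx1, and also Cpeb1, Dazl, Pabpc1l and Ybx2, which like the 3 shown were higher at GV than at the 4-cell stage. A high CpG count did not set Ybx1 apart: it had 25 CpG dinucleotides and Cpeb1 had 25, Dazl 20, Pabpc1l 6, Zar1 9, Pabpn1l 3 and Zar1l 2, with 35 and 29 before the 2 annotated starts of Ybx2, against a median of 6 over all promoters. The TATA box TATAAA was searched as well. Among the members it was found in the Cpeb1 promoter alone, with 1 match, and 12.4% of all promoters held it. A match is a run of letters and not a measured binding site.

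The transcriptome libraries held 11231458 to 24263239 reads and the fraction libraries 10243 to 43212237, with 15 fraction libraries under 1000000 reads, most of them fraction 1. The stage labels fitted their marker genes. The summed level of 5 oocyte markers was 13973 to 15786 CPM (reads of a gene per 1000000 reads counted over genes) in the GV libraries and 4.76 to 11.5 CPM in the blastocyst libraries. The 5 blastocyst markers summed to 2644.5 to 3684.5 CPM in blastocysts and to at most 5.76 CPM in GV, MII and zygote libraries. Of 6 cumulus and granulosa cell markers, 3 are in the table. Their sum was 39.4 to 68.9 CPM from GV to zygote and at most 0.227 CPM from the 4-cell stage. At MII and in zygotes 2 of the 3 were under 1 CPM, so nearly all of the sum there came from 1 gene. The part of such cells in the results below was not tested. Reads from Pabpc1 and Ybx1 can also fit near-identical processed copies elsewhere in the genome, and the libraries do not mark strand, so the values of these 2 genes are less certain than the others.

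In the transcriptomes, 7 of the 9 messages were abundant or present in oocytes and nearly gone at the 4-cell stage, while Pabpc1 and Ybx1 went the other way. Changes between consecutive stages were tested with limma on log2(CPM + 1) over all 14642 genes that passed the filter, and all 9 members passed it. CPM are relative to all reads counted, so less of a message per embryo and more of other messages cannot be told apart. Poly(A) tail length was not measured, and its part in the levels below was not tested. A change was called at a Benjamini-Hochberg adjusted p under 0.05 and a size of at least 1 on that log2 scale, which understates changes of weakly expressed genes. Of 63 member changes, 27 were called. From GV to MII 2 members rose and 3 fell, where 9.11% of all genes tested rose and 25.3% fell, 34.5% in all. From MII to zygote 1 rose and 3 fell, where 5.79% of all genes rose and 4.48% fell, 10.3% in all. From zygote to 2-cell 2 rose and 5 fell, where 25.2% of all genes rose and 8.71% fell, 33.9% in all. From 2-cell to 4-cell all 9 were called, 2 higher and 7 lower, where 31.8% of all genes rose and 32.9% fell, 64.8% in all. No member was called from 4-cell to 8-cell (2.60% of all genes) or from 8-cell to morula (11.9%). From morula to blastocyst 1 rose and 1 fell, where 18.8% of all genes rose and 7.97% fell, 26.8% in all. These percentages are called the background from here on. The shares of members called from MII to zygote and through the first cleavages were above these backgrounds, but the genes were listed with earlier results of these data known, so the difference carries no test.

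**Figure D1:**
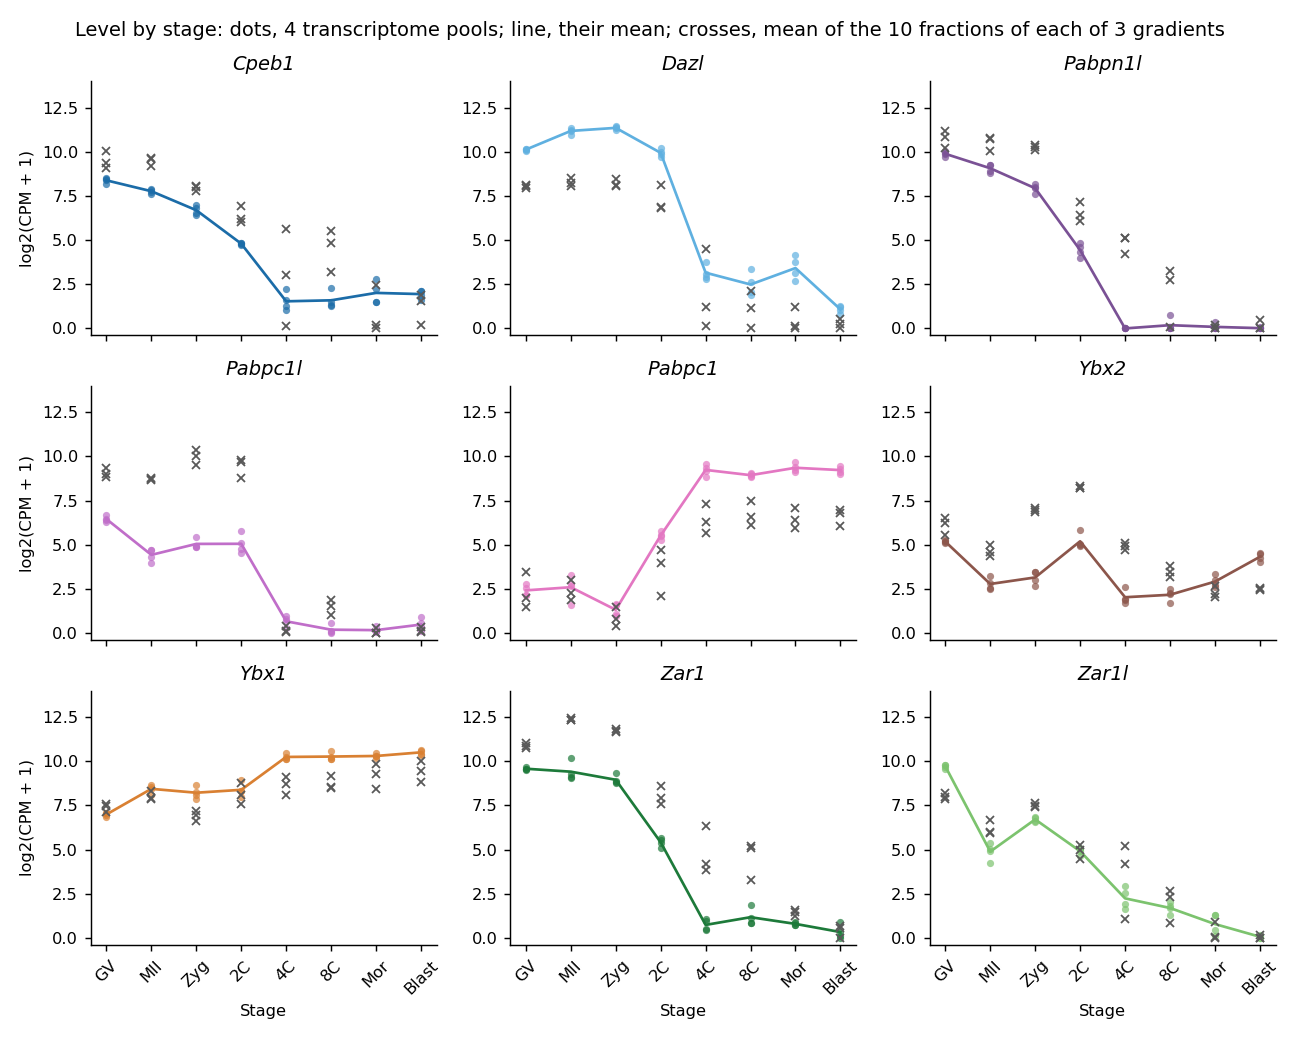
Level of each of the 9 messages by stage, as log2(CPM + 1), with 1 panel per gene. Dots are the 4 transcriptome pools, the line is their mean, and crosses are the mean of the 10 fractions of each of the 3 gradients; Pabpc1 and Ybx1 are highest from the 4-cell stage on, and the other 7 are lowest there or later.

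Cpeb1, the CPE-binding protein, was highest at GV and fell in every step from MII to the 4-cell stage. Its 4 GV libraries read 333.6, 360.7, 292 and 346.5 CPM, and the MII libraries 235.5, 228.7, 197.6 and 206 CPM. The zygotes read 84.3, 127.3, 91.7 and 111 CPM, the 2-cell embryos 25.5 to 27.7 CPM, and the 4-cell embryos 1.03 to 3.70 CPM. No library of these 5 stages overlapped those of its neighbour, and the stages from 4-cell to blastocyst overlapped each other. The fall was called from MII to zygote (log2 change -1.07, SE 0.246, adjusted p = 0.000946), from zygote to 2-cell (-1.90, adjusted p = 3.41e-08) and from 2-cell to 4-cell (-3.26, adjusted p = 2.02e-14). From GV to MII the change was -0.62, under the size limit. The MII to zygote change was -0.942 without the A pools and -0.967 after quantile normalization, and was then not called.

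Dazl, the germ-cell partner of CPEB1, rose at maturation and was still abundant at the 2-cell stage. It read 1100, 1148, 1043 and 1159 CPM at GV, and 1990, 2427, 2332 and 2546 CPM at MII, with no overlap. The rise was 1.06 on the log2 scale (SE 0.245, adjusted p = 0.000352). Zygotes, at 2446 to 2769 CPM, overlapped the MII libraries, and the 2-cell libraries at 817.9 to 1181 CPM overlapped the GV libraries, a called fall from the zygote (-1.41, adjusted p = 6.61e-06). After quantile normalization the rise was 0.872 and this fall -0.906, both under the size limit. The step to the 4-cell stage took Dazl from 987 ± 151 CPM to 8.23 ± 3.09 CPM (SD, n = 4 each), 120-fold lower (log2 change -6.78, SE 0.245, adjusted p = 1.37e-23). A last called fall, from 10.5 to 1.13 CPM, came between morula and blastocyst (-2.34, adjusted p = 7.92e-10).

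The poly(A)-binding proteins traded places between the zygote and the 4-cell stage. Pabpc1l read 78.0, 100.6, 82.9 and 87.6 CPM at GV and 14.9 to 25.5 CPM at MII, a called fall (log2 change -2.03, SE 0.235, adjusted p = 2.98e-09). Zygotes held 28.6 to 43.2 CPM and 2-cell embryos 22.5 to 55.1 CPM, which overlapped. At the 4-cell stage 0.203 to 0.960 CPM remained, 55.5-fold below the 2-cell mean (-4.39, SE 0.235, adjusted p = 1.32e-18). Pabpc1, the somatic form, lay at 3.51 to 5.76 CPM at GV and 0.948 to 2.17 CPM in zygotes, a called fall from MII (-1.28, adjusted p = 4.01e-05) that was -0.656 with a pseudocount of 5. It rose 29.3-fold to 44.4, 37.6, 45.9 and 54.6 CPM in 2-cell embryos (4.21, SE 0.228, adjusted p = 8.02e-18) and again 13.5-fold to 775.3, 573.6, 642.4 and 465.4 CPM in 4-cell embryos (3.71, SE 0.228, adjusted p = 6.00e-17). From the 4-cell stage to the blastocyst the libraries overlapped, between 460.8 and 823.4 CPM.

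To compare levels between genes, CPM were divided by the length of the GENCODE transcript. On that scale Pabpc1l made up 95.9 ± 0.978% (SD, n = 4) of the sum of Pabpc1l and Pabpc1 in GV oocytes, 82.7 ± 5.57% at MII and 96.0 ± 1.90% in zygotes. The 2-cell libraries ranged from 40.4 to 59.7%, with a mean of 46.1%. The share was 0.118% in 4-cell embryos, and no library from that stage on passed 0.200%. In the gradients the same share was still 98.2 ± 1.25% (SD, n = 3) at the 2-cell stage, where the 3 gradients ranged from 97.3 to 99.7%, above every transcriptome library of that stage. By the 4-cell stage the fractions were at 0.269 ± 0.255%.

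**Figure D2:**
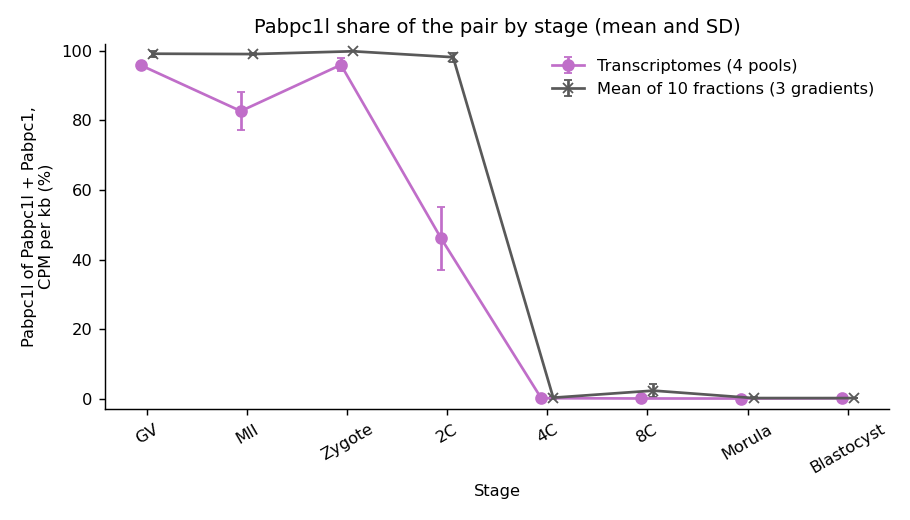
Share of Pabpc1l in the sum of Pabpc1l and Pabpc1, in CPM per kilobase and percent, by stage. Points are means and bars SDs of the 4 transcriptome pools and of the 3 gradients (mean of 10 fractions). The largest gap between the 2 kinds of library is at the 2-cell stage, at 46.1% against 98.2%.

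Pabpn1l was highest at GV and fell in each step from MII to the 4-cell stage. The 4 libraries read 935.8, 971.6, 1034 and 837.3 CPM at GV, 442.7 to 617.2 CPM at MII, 192.3 to 293.1 CPM in zygotes and 14.7 to 28.0 CPM in 2-cell embryos, with no overlap between neighbouring stages. No read was counted in any of the 4 libraries of 4-cell embryos. Against a floor of 3 reads per library, that is at least 126-fold lower than at the 2-cell stage. The falls from MII to zygote (log2 change -1.13, adjusted p = 1.42e-05), to 2-cell (-3.50, adjusted p = 6.43e-18) and to 4-cell (-4.43, adjusted p = 1.35e-21) were called. Without the C pools the MII to zygote change was -0.949 and was not called. Single libraries of later stages held up to 0.664 CPM. The gradients of 4-cell embryos did hold Pabpn1l reads, at 34.2, 17.3 and 34.1 CPM as means of 10 fractions, in 2 to 4 fractions of each.

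The Y-box genes followed separate courses. Ybx1 read 125, 115.1, 132.9 and 132.2 CPM at GV, and 378.6, 271.1, 406.7 and 342.3 CPM at MII, a rise of 1.45 on the log2 scale (SE 0.157, adjusted p = 5.82e-10). MII, zygote and 2-cell libraries overlapped between 227.8 and 480.4 CPM. At the 4-cell stage Ybx1 reached 1226, 1402, 1105 and 1132 CPM (1.86, SE 0.157, adjusted p = 3.72e-13) and stayed between 1105 and 1618 CPM to the blastocyst. Ybx2, the germ-cell form, stood at 33.0 to 37.3 CPM at GV and fell to 4.70 to 8.50 CPM at MII (-2.40, SE 0.236, adjusted p = 6.33e-11). It rose from 5.33 to 10.2 CPM in zygotes to 56.1, 31.5, 30.0 and 30.8 CPM in 2-cell embryos (2.05, SE 0.236, adjusted p = 2.81e-09). It then fell to 2.33 to 5.14 CPM at the 4-cell stage (-3.17, adjusted p = 1.46e-14), and between morula and blastocyst it rose again, from 6.71 to 19.2 CPM (1.40, adjusted p = 6.48e-06; 0.997 in size after quantile normalization). In the transcriptomes Ybx2 therefore had 3 high stages, GV, 2-cell and blastocyst, with the GV and 2-cell libraries overlapping. The gradients did not show the same course. As means of the 10 fractions they held 70.55 ± 22.0 CPM at GV, 126 ± 10.4 CPM in zygotes and 306 ± 10.8 CPM at 2-cell (SD, n = 3). In morulae they held 4.02 ± 1.16 CPM and in blastocysts 4.70 ± 0.287 CPM. The blastocyst fractions lay 4.08-fold below the transcriptomes, with no overlap.

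Zar1 and Zar1l took different courses at maturation. Zar1 read 756.3, 800.9, 737.5 and 756.6 CPM at GV and 1171, 546.4, 626.5 and 529.4 CPM at MII, so 1 MII library lay above all of the GV libraries and 3 lay below. The change was not called (log2 change -0.17, adjusted p = 0.591). Zygotes held 441.6 to 637.7 CPM and 2-cell embryos 32.7 to 49.4 CPM, 11.9-fold lower (-3.54, SE 0.232, adjusted p = 1.69e-15), and 4-cell embryos 0.343 to 1.13 CPM (-4.68, adjusted p = 1.27e-19).
Zar1l read 878.6, 828.1, 877.8 and 767.6 CPM at GV, but only 31.6, 40.6, 18.0 and 28.7 CPM at MII, 28.2-fold lower (-4.82, SE 0.252, adjusted p = 1.87e-18). That was the largest called change of any member between GV and MII. In zygotes Zar1l was back at 94.7, 97.3, 110.5 and 113 CPM, above every MII library (1.82, SE 0.252, adjusted p = 6.39e-07). It then fell to 23.4 to 33.3 CPM at the 2-cell stage (-1.80, adjusted p = 1.48e-07) and 2.08 to 6.54 CPM at the 4-cell stage (-2.67, adjusted p = 6.90e-12).

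Per kilobase of transcript, the order of the members at MII was Dazl (781 ± 80.5), Zar1 (503 ± 213), Pabpn1l (470 ± 75.8), Ybx1 (215 ± 36), Cpeb1 (69.7 ± 5.80), Zar1l (33.2 ± 10.4), Pabpc1l (8.95 ± 2.19), Ybx2 (3.61 ± 1.05) and Pabpc1 (1.99 ± 1.00), each in CPM per kilobase with its SD over 4 libraries. Zar1 and Pabpn1l did not differ beyond their spread. At the 4-cell stage Ybx1 (747 ± 82.4) and Pabpc1 (218 ± 46.1) led, and no other member passed 4.50 CPM per kilobase.

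The gradients were read from the same kit, but several members had other levels there than in the transcriptomes. For each gradient the 10 fractions were averaged. Over the 36 pairs of a member and a stage from GV to 2-cell, the 3 gradients and the 4 transcriptome libraries did not overlap in 30. The fractions were higher in 23 of these and lower in 7. Each fraction is scaled to its own total, so this mean is not the content of the lysate.

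Pabpc1l stood furthest apart. Its fractions averaged 538 ± 103 CPM (SD, n = 3) at GV, 6.17-fold above the transcriptomes, 426 ± 18.4 CPM at MII (20.2-fold), 1030 ± 292 CPM in zygotes (31.5-fold) and 724 ± 243 CPM at 2-cell (21.1-fold). Zar1 was 2.49-fold higher in the fractions at GV and 7.40-fold higher at MII, where the 3 gradients averaged 5315 ± 271 CPM. Ybx2 was 15.5-fold higher in zygotes and 8.25-fold higher at 2-cell. Dazl was the reverse: the fractions held 309 ± 46.6 CPM at MII and 295 ± 47.7 CPM in zygotes, 7.52-fold and 8.86-fold below the transcriptomes. Cpeb1 and Pabpn1l were higher in the fractions at all 4 stages, by 2.25-fold to 3.29-fold and 1.86-fold to 4.93-fold. Over all genes the median log2 ratio of fractions to transcriptomes was 0.0232 at GV and 0.253 in zygotes. At these 4 stages 6.59% to 16.1% of genes were at least 8-fold higher in the fractions. Genes at least 8-fold lower were not counted, and the 5th percentile of the log2 ratio was -2.61 at GV and -3.12 in zygotes. At the 4-cell stage the ranges were apart for Pabpn1l, Ybx2 (29.2 CPM in the fractions, 9.07-fold higher) and Zar1 (36.9 CPM, 52.7-fold higher), with the fractions above, and for Pabpc1 and Ybx1, with the fractions 6.51-fold and 2.96-fold below. The rise of Dazl at maturation in the transcriptomes (2.09-fold) was thus accompanied by 264 ± 13.0 CPM at GV and 309 ± 46.6 CPM at MII in the fractions.

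To describe where a message sat, the 5 heavy fractions, 6 to 10, were set against the 5 light ones, 1 to 5. Messages with many ribosomes sediment further, and the labels number the fractions without naming the end they start from, so the numbering is taken here to run from the top. The heavy share is the CPM summed over fractions 6 to 10 as a percentage of the sum over all 10. It is given where each gradient held at least 100 reads and at least 20 of the 30 libraries had any, a rule chosen after the values were seen, which left 46 of 72 pairs of a member and a stage. From the 4-cell stage, 137 to 160 of the 270 member values per stage were at 0 reads, against 1 to 15 of 270 from GV to 2-cell. Of the 46 pairs, 17 lay above the median of all genes of that stage and 19 lay below the 20th percentile.

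**Figure D3:**
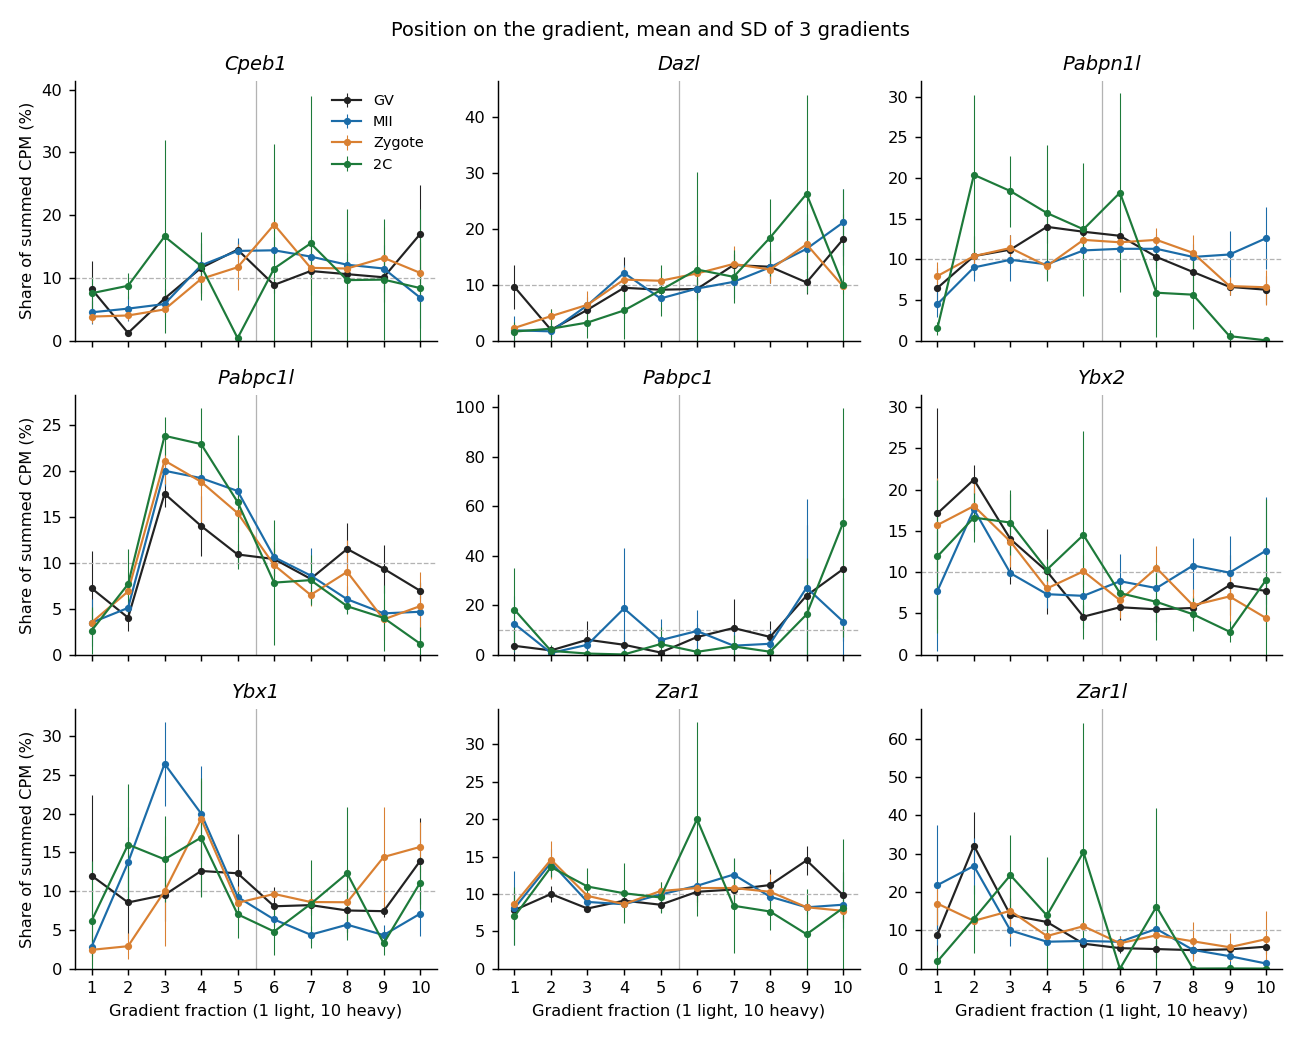
Share of each message's summed CPM in fractions 1 to 10 (percent, mean and SD of 3 gradients) at GV, MII, zygote and 2-cell; the dashed line marks 10% and the vertical line divides light from heavy fractions. Dazl leans to the heavy side at all 4 stages and Zar1l and Pabpc1l to the light side; Pabpc1 in zygotes is left out for few reads.

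Dazl lay on the heavy side in all 12 gradients from GV to 2-cell. Its heavy share was 60.2, 63.3 and 69.7% in the 3 GV gradients, 69.1, 70.9 and 71.4% at MII, 61.4, 63.7 and 70.9% in zygotes, and 77.7, 78.2 and 79.8% at 2-cell. Heavy and light CPM did not overlap at any of these 4 stages. At MII the heavy fractions averaged 435 ± 57.8 CPM and the light ones 183 ± 35.5 CPM. The difference was called at MII (log2 heavy to light 1.25, SE 0.397, adjusted p = 0.0241), in a test over 15172 genes in which 3 members were called at MII and 15.2% of all genes were.
Cpeb1 had heavy shares of 57.8 ± 9.25% at GV, 58.2 ± 2.37% at MII, 65.6 ± 4.97% in zygotes and 54.7 ± 8.47% at 2-cell. The medians over all genes with enough reads were 53.79, 49.08, 49.66 and 48.05%, which put Cpeb1 at percentiles 61.8, 67.45, 76.3 and 60.9. Its heavy and light CPM overlapped at GV, MII and 2-cell, and 2-cell gradient A had a share of 44.99%. None of its differences was called. The Dazl call had an adjusted p of 0.603 without array weights, and with any 1 of the 3 gradients left out it was between 0.0975 and 0.15. In another alternative it was higher than all of these.

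Zar1l leaned to the light side in oocytes. The heavy share was 32.9, 24.2 and 21.5% at GV, at percentile 1.21 of 10835 genes, and 21.4, 19.6 and 40.0% at MII. At GV the light fractions averaged 385 ± 71.5 CPM and the heavy ones 134 ± 17.9 CPM. At MII they averaged 105 ± 13.0 and 43.4 ± 31.6 CPM, a called difference (-1.47, SE 0.460, adjusted p = 0.0219). The adjusted p was 0.592 without array weights, 0.143 without gradient A and 0.276 without B, and higher still in another alternative. In zygotes the share was 35.9 ± 1.90%. Zar1, its relative, was spread over the gradient, with 56.4 ± 2.83% at GV, 50.2 ± 4.94% at MII, 47.97 ± 4.07% in zygotes and 48.8 ± 7.10% at 2-cell.

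Among the poly(A)-binding proteins, Pabpc1l had 46.4 ± 7.17% of its CPM in the heavy fractions at GV and 35.2, 35.6 and 32.3% at MII, where light and heavy CPM no longer overlapped. It held 34.4 ± 8.08% in zygotes and 26.4 ± 9.83% at 2-cell. Pabpn1l had 44.6 ± 4.17% at GV and 56.1 ± 3.32% at MII, with no overlap of the gradients, and 30.3 ± 5.43% at 2-cell. No heavy to light difference of these 2 genes was called from GV to 2-cell. Few Pabpc1 reads were found before the 4-cell stage, and those at GV and 2-cell lay mostly in heavy fractions (83.6 ± 10.6% and 75.3 ± 18.8%). From the 4-cell stage, when its message was abundant, the heavy share was 20.9 ± 13.4% in 4-cell embryos, 42.2 ± 19.11% in 8-cell embryos, 28.2 ± 5.80% in morulae, and 16.8, 16.3 and 19.3% in blastocysts. The blastocyst difference was called (-2.21, SE 0.447, adjusted p = 0.000277), with 2 members called and a background of 17.4%. Without array weights its adjusted p was 0.168, and over the alternatives it reached 0.532.

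Ybx1 lay in lighter fractions at MII than at GV or in the zygote, and was light again by the 4-cell stage. The 3 gradients gave 47.9, 45.6 and 41.6% at GV, 32.03, 21.9 and 29.7% at MII, and 50.3, 51.4 and 69.0% in zygotes, with no overlap between these neighbours. At 2-cell they gave 56.3, 35.6 and 27.65%, which overlapped the 4-cell shares of 37.3, 18.5 and 17.4%. The stage of the return to the light side can therefore not be told. At MII the light fractions held 380 ± 46.8 CPM and the heavy ones 149 ± 47.3 CPM (-1.38, SE 0.318, adjusted p = 0.00164, but 0.063 without array weights, 0.0529 without gradient B and up to 0.117 over the alternatives). In blastocysts they held 1251 ± 496 and 193 ± 75.6 CPM, a heavy share of 13.6, 14.6 and 12.2% (-2.68, SE 0.262, adjusted p = 3.25e-10), at percentile 2.18 of all genes with enough reads. The blastocyst difference was the one member call of heavy against light that held under every alternative run. The morula difference was called as well (-1.76, adjusted p = 0.00207; 0.192 without gradient C), where 2 members were called and 11.4% of all genes were. Ybx2 lay at 33.0 ± 7.98% at GV, 50.3 ± 10.7% at MII, 34.6 ± 1.68% in zygotes and 30.6 ± 12.2% at 2-cell, and none of these was called.

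**Figure D4:**
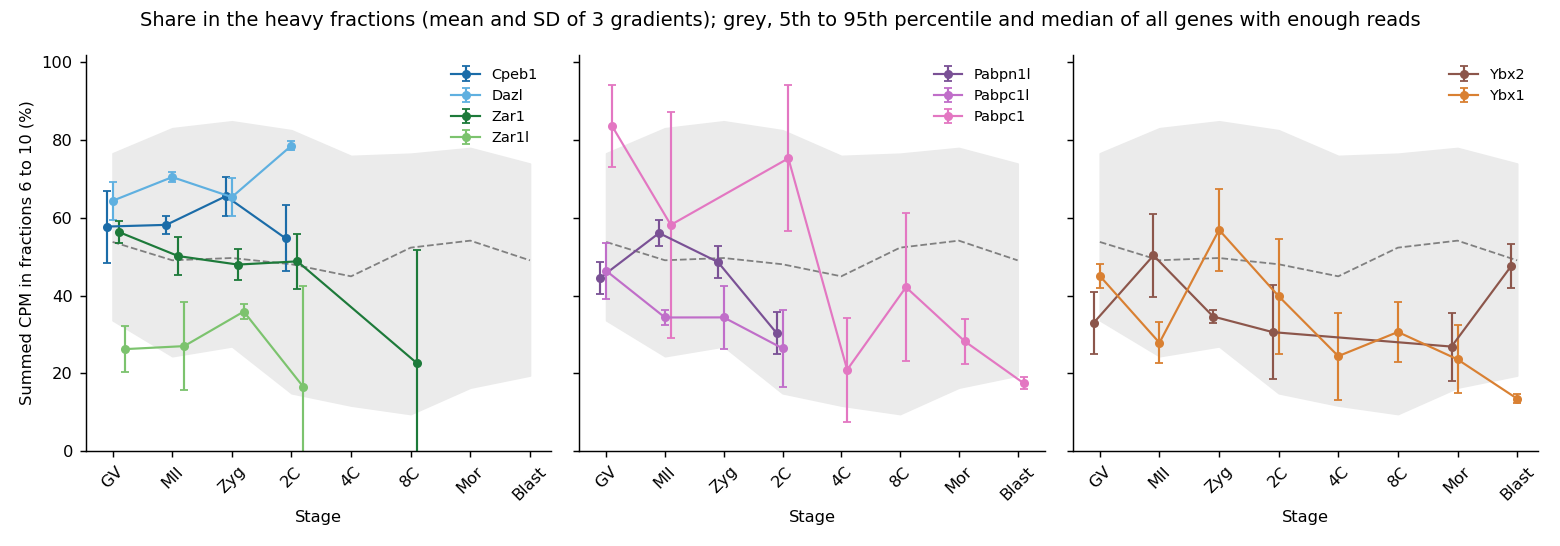
Heavy share (percent of a message's summed CPM in fractions 6 to 10) by stage for the members with enough reads; points are means and bars SDs of 3 gradients. The dashed line is the median and the grey band the 5th to 95th percentile of all genes with enough reads; Ybx1 in blastocysts (13.5%) and Zar1l at GV (26.2%) are among the points below the band.

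The remaining calls of heavy against light rest on few reads. At the 4-cell stage Zar1 (-5.12, adjusted p = 0.00528) and Ybx2 (-3.91, adjusted p = 0.0491) were called, with a background of 0.817%, but the 3 gradients held 2 to 49 heavy Zar1 reads each. At the 8-cell stage Zar1 (-2.84, adjusted p = 0.00804) and Pabpc1l (1.87, adjusted p = 0.0401) were called, with a background of 5.11%. Gradients A and B held Pabpc1l there in fraction 7 alone, at 26.1 and 19.4 CPM, and gradient C held none in fraction 7 but 2.73, 0.131 and 7.32 CPM in fractions 5, 6 and 10. Each of these 4 calls was lost without gradient A and without gradient B, and that of Zar1 at 4-cell also without C. In morulae the Zar1 call (-1.61, adjusted p = 0.0152) became -0.425 with an adjusted p of 0.772 once fraction libraries under 1000000 reads were left out. No member was called at GV (background 4.11%), in zygotes (background 15.0%) or at 2-cell (background 3.53%). Both sides of a gradient come from the same lysate, and with the gradient as a replicate block Pabpc1 (1.75, adjusted p = 0.0159) and Zar1l (-1.51, adjusted p = 0.0309) were called at GV, where 1012 of all genes were called against 623 without the block, while the 4-cell difference of Ybx2 was not (adjusted p = 0.0747).

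The level in the heavy fractions was next compared between consecutive stages, over 14524 genes, and 12 of 63 member changes were called. From GV to MII Zar1 rose from 2136 ± 184 to 5344 ± 732 CPM, as means of fractions 6 to 10 (1.32, SE 0.402, adjusted p = 0.0241), and Zar1l fell from 134 ± 17.9 to 43.4 ± 31.6 CPM (-1.82, SE 0.519, adjusted p = 0.0158), against a background of 17.8%. From MII to zygote Ybx2 rose from 25.0 ± 8.31 to 87.1 ± 8.08 CPM (1.81, adjusted p = 0.0385, background 6.15%).
From zygote to 2-cell Pabpn1l (-4.38, SE 1.01, adjusted p = 0.0061), Zar1 (-3.69, adjusted p = 0.00325) and Zar1l (-5.01, adjusted p = 0.00208) fell, against a background of 11.6%. Over all genes the median heavy change in that step was -0.511. From 2-cell to 4-cell Dazl (-6.77, SE 1.06, adjusted p = 0.000125), Pabpc1l (-8.32, SE 0.939, adjusted p = 6.09e-06), Zar1 (-7.35, SE 1.06, adjusted p = 6.15e-05) and Ybx2 (-5.82, SE 1.21, adjusted p = 0.00155) fell, against 18.5%. The falls of Dazl, Pabpc1l and Zar1 were the calls that held under every alternative. Each of the other 9 calls was lost without at least 1 of the gradients, with adjusted p of 0.054 to 0.564. With edgeR's quasi-likelihood test on summed reads the GV to MII changes of Zar1 and Zar1l had adjusted p of 0.997 and 1, and the number of member calls in all transitions was 5 without gradient A and 7 without gradient B. Between 8-cell and morula Pabpc1l (-1.89, adjusted p = 0.0199) and Zar1 (-1.84, adjusted p = 0.0452) were called from 8-cell means of 3.53 and 5.99 CPM (background 10.6%). No member was called from 4-cell to 8-cell (background 0.482%) or from morula to blastocyst (background 3.44%).

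**Figure D5:**
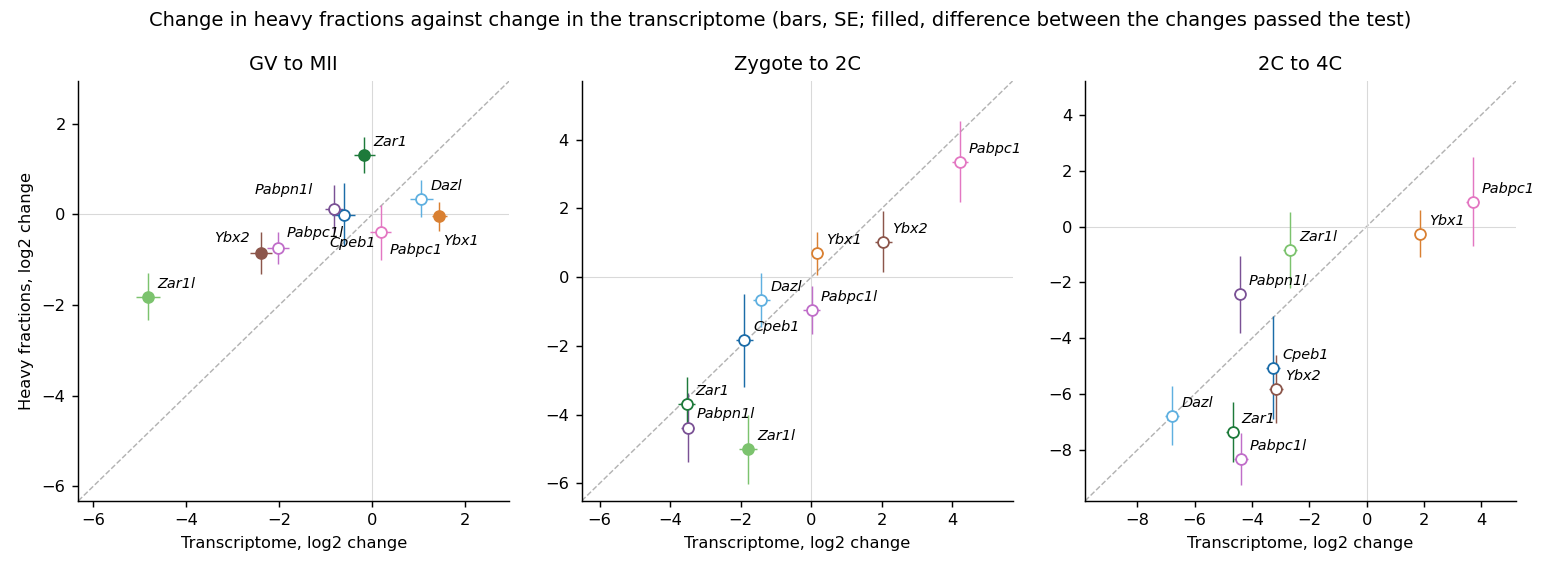
Log2 change in the heavy fractions (vertical axis) against log2 change in the transcriptomes (horizontal axis) for the 9 members in 3 transitions, GV to MII, zygote to 2-cell and 2-cell to 4-cell; bars are SEs and the dashed line marks equal change. Filled points were called for the difference between the 2 changes: 4 of 9 members from GV to MII, 1 of 9 from zygote to 2-cell and 0 of 9 from 2-cell to 4-cell.

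Whether the heavy fractions changed by another amount than the transcriptome was tested as an interaction over 15165 genes. From GV to MII 4 members were called, where 16.6% of all genes were. Zar1l fell 4.82 in the transcriptomes but 1.82 in the heavy fractions, on the log2 scale, a difference of 3.01 (SE 0.552, adjusted p = 4.02e-05) that held under every alternative. Ybx1 rose in the transcriptomes by 1.45 while its heavy level was 149 ± 15.9 and 149 ± 47.3 CPM, a difference of -1.49 (SE 0.373, adjusted p = 0.00263). Zar1 (1.48, SE 0.504, adjusted p = 0.0326) and Ybx2 (1.55, SE 0.523, adjusted p = 0.0322) had a higher heavy change than transcriptome change. Over the alternatives the adjusted p reached 0.0546 for Ybx1, 0.23 for Zar1 and 0.357 for Ybx2. The test leaves out the light fractions, so a call is not by itself a shift toward the heavy side. In the light fractions Zar1 rose as well, from 1657 ± 213 to 5287 ± 399 CPM, and Zar1l fell from 385 ± 71.5 to 105 ± 13.0 CPM. The mean heavy share at GV and MII was 56.4 and 50.2% for Zar1 and 26.2 and 27.0% for Zar1l. For Ybx1 it was 45.05 and 27.85%, and for Ybx2 33.0 and 50.3%. From zygote to 2-cell Zar1l was called (-3.21, SE 1.06, adjusted p = 0.0473, background 8.66%). Over all genes the median difference in that step was -0.888, and 2.21% of the calls were upward. After quantile normalization that median was 0.0417. The Zar1l call was lost without gradient A, B or C (adjusted p of 0.0729, 0.212 and 0.288) and without any of 3 of the 2-cell pools. It was also lost with either other pseudocount, after quantile normalization and with fractions 7 to 10 as the heavy side. From morula to blastocyst Dazl was called (1.87, adjusted p = 0.00689, background 7.70%), with at most 2.56 CPM in the heavy fractions of any gradient at either stage, and the adjusted p was 0.0588 without gradient A and 0.155 without B. None was called from MII to zygote (background 3.41%), 2-cell to 4-cell (2.57%), 4-cell to 8-cell (0.646%) or 8-cell to morula (3.28%).

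The 14 messages known as targets of CPEB1 or DAZL, or as activated during maturation, were followed as a list. At MII 11 of the 14 were called heavy, where 8.86% of all genes were, and none light, with a median log2 heavy to light of 1.90 against -0.06 over all genes tested. In zygotes 10 of 14 were heavy, where 9.95% of all genes were, with a median of 2.06 against -0.04. The list was chosen with earlier results known and took activation during maturation as a ground for entry, so these counts are a description. From GV to MII no target was called higher in the heavy fractions or in the interaction (backgrounds 17.8% and 16.6%, either direction). Tex19.1 had the largest called fall in the heavy fractions, from 85.1 ± 29.9 to 33.6 ± 18.4 CPM (-1.42, SE 0.443, adjusted p = 0.027). In the interaction it was Bub1b (-2.20, SE 0.482, adjusted p = 0.000546), with heavy means of 970 ± 136 and 353 ± 79.8 CPM. Ddx4, the germ-cell helicase VASA, held 28.7 ± 9.01 CPM in the heavy and 2.81 ± 2.15 CPM in the light fractions at MII (3.06, SE 0.710, adjusted p = 0.00179). Cnot7, a deadenylase of the CCR4-NOT complex, held 130 ± 46.8 and 8.42 ± 3.45 CPM in zygotes (3.82, SE 0.410, adjusted p = 8.98e-09). Bub1b, a kinase of the spindle checkpoint, held 238 ± 89.0 and 26.0 ± 10.7 CPM there (3.15, SE 0.626, adjusted p = 0.000342). At MII its difference was not called (1.61, adjusted p = 0.0623). Orc6, a subunit of the origin recognition complex, held 170 ± 73.9 and 12.8 ± 4.44 CPM in zygotes (3.59, adjusted p = 8.98e-09). It rose in the transcriptomes from 407 ± 29.8 to 1058 ± 90.2 CPM between GV and MII (1.38, SE 0.124, adjusted p = 6.65e-12), 1 of 7 targets that rose there with none falling (backgrounds 9.11% and 25.3%). From 2-cell to 4-cell 9 targets fell and 1, the spindle factor Tpx2, rose (backgrounds 32.9% and 31.8%). Btg4, which links CCR4-NOT to maternal messages, leaned to the heavy fractions in zygotes (2.26, adjusted p = 0.000341), and in the transcriptomes it fell between 2-cell and 4-cell from 11400 to 17.9 CPM (-9.30, SE 0.210, adjusted p = 3.27e-29). Mos, the kinase that holds MII arrest, fell between MII and zygote in the transcriptomes (-2.97, adjusted p = 1.49e-09) and the heavy fractions (-2.77, adjusted p = 0.00313).

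Other genes of the pathway moved in both directions. Of 17 genes for the cytoplasmic polyadenylation machinery, 5 rose and 2 fell from GV to MII in the transcriptomes, where 9.11% of all genes rose and 25.3% fell. From 2-cell to 4-cell 5 rose and 6 fell, with a median of -0.20 against 0.017 over all genes, which is near the background of 31.8% and 32.9%. Cpsf4, a subunit of the cleavage and polyadenylation factor, fell from 20.4 to 0.466 CPM at maturation (-3.88, adjusted p = 1.56e-17), and Cpeb4, the relative of Cpeb1, rose from 10.6 to 37.4 CPM (1.71, adjusted p = 1.78e-07). Eif4e1b, an oocyte form of the cap-binding protein, fell from 217 to 0.952 CPM between 2-cell and 4-cell (-6.75, adjusted p = 1.48e-20). Of 12 other poly(A)-binding genes and partners, 7 are in the table. Paip2, an inhibitor of poly(A)-binding protein, fell from 842 ± 16.2 to 29.0 ± 11.5 CPM between GV and MII (-4.88, adjusted p = 3.75e-25) and was back at 366 CPM in 2-cell embryos (2.65, adjusted p = 1.65e-17). Larp1, a binder of poly(A)-binding protein and of cap structures, rose from 4.25 to 121 CPM between 2-cell and 4-cell (4.54, adjusted p = 1.62e-17). Of 19 other RNA-binding genes tested, 6 rose and 8 fell in that step, against the same background. Igf2bp1 rose from 4.21 to 57.0 CPM (3.40, adjusted p = 9.87e-17) and Elavl2 fell from 289 to 5.63 CPM (-5.43, adjusted p = 1.14e-24). Ybx3, the other Y-box gene, leaned to the light fractions at GV, with 204 ± 106 CPM there against 53.4 ± 7.43 CPM in the heavy ones (-1.80, adjusted p = 0.00287).

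Likeness between messages was measured as Pearson's r of log2(CPM + 1) over the 32 transcriptome libraries among 10769 genes, as a description, since libraries of a stage share that stage. The genes closest to Cpeb1 were Pabpn1l (r = 0.989), Kcnk13 and Gtf2a1l, and those closest to Zar1 were Manba (0.994), Pabpn1l and Kcnk13. Pabpn1l had Kcnk13, Zar1 and Hacd4 nearest, all at 0.992, so 3 members lie in 1 neighbourhood. Dazl was closest to Accsl, Trim61 and Chek1, Pabpc1l to Th, Reep2 and Opalin, and Zar1l to Elobl, Pramel15 and Ccno. Pabpc1 was closest to Npepps, Cct6a and Mdn1 (0.990 to 0.993) and Ybx1 to Zranb2, Tnrc6a and Pgam1 (0.965 to 0.968). Ybx2 had the loosest match, Gins2 at 0.941, and its r with the other 8 members ran from -0.538 to 0.597. Cpeb1, Dazl, Pabpc1l, Pabpn1l, Zar1 and Zar1l had r of 0.858 to 0.992 with each other.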

How the data were processed

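The deposited table gives CPM per gene symbol for 272 libraries, 32 transcriptomes and 240 gradient fractions. In 9 columns the deposited values sum past 1000000 over symbols with identical values and were treated as a signal scaled like CPM. Per the labels' protocols, libraries were made with the Smart-seq v4 kit and Nextera XT. Per the submitters' processing notes, the tools were Trim Galore 0.6.7, FastQC, HISAT2 2.2.1, featureCounts 2.0.1 and edgeR, with the build GRCm39; their settings, and how reads that fit several places were treated, are not given in the sources used here. Of 15854 symbols, 159 fell into 76 groups with identical values, each counted once, which left 15771 genes. Whole reads could be recovered for 100% of values (within 0.05 of a whole number). The transcriptomes held 11231458 to 24263239 reads and the fractions 10243 to 43212237, which limits the precision of low values.

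Samples were grouped by stage and kind of library as labelled. The columns of the 4 transcriptomes of 2-cell embryos carry other letters than the labels, so they were used as a group without replicate letters. Stages were compared with limma 3.58.1 (R 4.3.3) on log2(CPM + 1), in genes that reached 1 CPM in enough samples to fill the smallest group, with Benjamini-Hochberg adjustment over all genes. For gradients, CPM were averaged over fractions 6 to 10 (heavy) and 1 to 5 (light), and the fits used 1 array weight per stage (per stage and kind of library in the interaction). Alternatives were other pseudocounts, no filter, quantile normalization, other weights and designs, a replicate block, other fraction limits, leaving out replicates, and edgeR 4.0.16 and DESeq2 1.42.0 on recovered reads. The edgeR quasi-likelihood test on recovered transcriptome reads called 6831 genes from GV to MII, where limma called 5045. Fraction libraries under 1000000 reads were left out in an alternative added after seeing the data. The scripts were tested on simulated reads with known changes. The transcriptome test from GV to MII called 100% of 4-fold changes. With array weights, the heavy change test from GV to MII called 26% of 4-fold and 82% of 16-fold changes. From 2-cell to 4-cell it called 0% of 4-fold, 16% of 16-fold and 22% of 64-fold changes. The heavy against light test called 18% of 4-fold differences at MII and 2% at 4-cell. A gradient change that was not called can still be present.

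The 9 members are named in every comparison. Of each other list, the called genes with the largest rise and fall in a comparison could be named, and targets of which a CPE is shown. For likeness the 3 genes of highest r were named, among genes with at least 10 CPM in some stage. The members and lists were chosen with earlier results of these data known. Same-letter samples of consecutive stages had correlated deviations in few cases (r over 0.1 in 3 of 21 pairs of heavy sides), so letters were not taken to pair samples of different stages. The heavy and light sides of a gradient share a lysate, and their deviations had r over 0.1 in 14 of 24 gradients; the fit with the gradient as a block is therefore given beside the calls it changes.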

Additional observations from a re-analysis of the deposited data

Results flagged for a closer look

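Among 59 groups of 4 transcriptome libraries, the member level of 1 library stood apart from the other 3 beyond the critical value of Dixon's test in 6 groups, where chance gives about 1 in 20. For Zar1 these were an MII library at 1171 CPM, against 529.4 to 626.5 CPM in the others, and a zygote library at 637.7 CPM, against 441.6 to 462.5 CPM. The same zygote library held the outlying Pabpc1l level of 43.19 CPM, where the others read 28.6 to 30.0 CPM. For Ybx2 they were a 2-cell library at 56.08 CPM, against 30.0 to 31.5 CPM, and a 4-cell library at 5.143 CPM, against 2.33 to 2.79 CPM. The 2-cell library also had the highest Pabpc1l (55.1 CPM) and Ybx1 (480.4 CPM) of its stage. For Cpeb1 it was an 8-cell library at 3.857 CPM, against 1.38 to 1.79 CPM.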

How the results depend on the processing

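The transcriptome calls depended least on the processing: 27 member changes were called, 24 to 34 under the alternatives (26 to 28 with pools left out, 30 with edgeR and 34 with DESeq2 on recovered reads), and 21 of the 27 were kept in all of them. Of 12 calls of heavy change 3 were kept, of 11 calls of heavy against light 1, and of 6 calls of heavy change beyond the transcriptome 1. No member change turned its direction while called. With 1 gradient or pool left out, the counts ran from 5 (without A) to 9 for heavy change, where gradient B gave 7, from 4 (without A or B) to 8 for heavy against light, and from 2 (without C) to 7 for the interaction, where A or B gave 3. With edgeR on summed reads 4 calls of heavy against light were made. The interaction gave 10 calls without array weights and 3 with fractions 7 to 10 as the heavy side. With that definition 6 pairs of a member and a stage had over 50% of their CPM in heavy fractions, against 16. The cause of these shifts was not tested. The summed reads used with edgeR left out fraction 7 of 2-cell gradient B, which the means used with limma kept. Over all genes the edgeR test on summed heavy reads called 161 genes from GV to MII where limma called 2581, and 5996 from 2-cell to 4-cell where limma called 2682. The other steps in order gave 50 against 893, 2165 against 1686, 856 against 70, 636 against 1534 and 6 against 500 with limma. For heavy against light, from GV to blastocyst, edgeR called 8, 156, 114, 2627, 2366, 650, 132 and 77 genes where limma called 623, 2304, 2277, 536, 124, 775, 1723 and 2636. On recovered transcriptome reads edgeR called 577 genes from 4-cell to 8-cell where limma called 380. Quantile normalization moved the transcriptome median of all genes by -0.448 in the step from zygote to 2-cell and by 0.274 at maturation. With a replicate block the counts were 12 for heavy change and 12 for heavy against light. For heavy against light the block changed 3 member calls, those of Pabpc1 and Zar1l at GV and of Ybx2 at 4-cell, and no other. Over the transitions without the 2-cell stage the block gave 11 transcriptome calls, where the fit without it gave 11, and 6 interaction calls, where the fit without it gave 5. Shallow fraction libraries and the many fractions with 0 reads from the 4-cell stage on limit the gradient results of weakly expressed members.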
